A study of Homo sapiens with 4 samples.

Results

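The 9 genes described here encode histone variants, and they were taken by name from a gene count table of 22637 genes measured in 4 prostate cancer cell lines. They are H2AJ, MACROH2A1 and MACROH2A2, H2AZ1 and H2AZ2, H2AX, H3-3A and H3-3B, and H1-10, and all 9 were present in the table. The genes were chosen by their measured levels and ratios, with earlier results of these data known, in which H2AJ and MACROH2A2 stood apart between the lines, so the values of the chosen genes are given as a description and carry no test.

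LNCaP, a castration-sensitive line of human prostatic adenocarcinoma, and C4-2B, a castration-resistant line, were the parental lines. LNCaP is itself the precursor of C4-2B, so what are called the LNCaP and C4-2B lineages below are related. LN-OlapR was derived from LNCaP and 2B-OlapR from C4-2B by growing the cells in rising doses of olaparib, an inhibitor of the poly(ADP-ribose) polymerases PARP1 and PARP2. All 4 lines were labelled untreated, and per the deposited design the cells were plated for 48 h without any selecting drug before RNA was taken. The methods of the study give a longer plating time, and state that the resistant lines were otherwise kept in medium with olaparib. Each resistant line was a single derived line and each line gave 1 library, so cell line, resistance and library cannot be told apart, and no spread between replicates could be estimated. No allele or transgene was given for any line.

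Most histone variants can be made outside the bulk synthesis of histones in S phase, and many of them replace the canonical proteins at particular places in chromatin. macroH2A carries a large macrodomain beyond its histone fold and is known for its place in silenced chromatin, H2A.Z marks promoters and enhancers, H2AX is phosphorylated beside DNA breaks, and H3.3 is laid down at active genes and at telomeres. H2A.J, which differs from canonical H2A mainly at its tail, is known to build up in senescent cells with lasting DNA damage, and H1.10 is a linker histone that is made throughout the cell cycle.

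The start regions of 4 of the genes are shown first because the results below turn on them: H2AJ and MACROH2A2 differed most between the lines, and H2AZ1 and H2AX moved in opposite directions in the resistant lines. Each sequence is the 250 bases before a RefSeq transcript start on GRCh38.p14, 5′ to 3′ on the strand of the gene. Capitals mark CCAAT on either strand (CCAAT or ATTGG) and TATAAA on either strand (TATAAA or TTTATA). The regions were chr12:14774155-14774404 on the plus strand for H2AJ, chr10:70052596-70052845 on the plus strand for MACROH2A2, chr4:99950276-99950525 on the minus strand for H2AZ1, and chr11:119095466-119095715 on the minus strand for H2AX.
H2AJ: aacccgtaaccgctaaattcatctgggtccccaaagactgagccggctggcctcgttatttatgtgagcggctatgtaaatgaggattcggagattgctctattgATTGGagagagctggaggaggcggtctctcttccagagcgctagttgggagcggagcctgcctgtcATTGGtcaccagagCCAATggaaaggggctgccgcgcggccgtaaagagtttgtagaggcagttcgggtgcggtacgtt
MACROH2A2: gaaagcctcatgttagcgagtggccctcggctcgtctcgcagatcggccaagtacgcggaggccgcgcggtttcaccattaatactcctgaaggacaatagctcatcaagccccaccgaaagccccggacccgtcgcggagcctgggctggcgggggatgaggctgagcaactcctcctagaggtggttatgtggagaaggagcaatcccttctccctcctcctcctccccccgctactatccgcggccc
H2AZ1: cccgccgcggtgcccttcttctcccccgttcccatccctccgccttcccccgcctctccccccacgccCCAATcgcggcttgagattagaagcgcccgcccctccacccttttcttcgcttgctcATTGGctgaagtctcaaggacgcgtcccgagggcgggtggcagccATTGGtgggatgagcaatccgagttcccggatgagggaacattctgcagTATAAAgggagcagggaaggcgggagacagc
H2AX: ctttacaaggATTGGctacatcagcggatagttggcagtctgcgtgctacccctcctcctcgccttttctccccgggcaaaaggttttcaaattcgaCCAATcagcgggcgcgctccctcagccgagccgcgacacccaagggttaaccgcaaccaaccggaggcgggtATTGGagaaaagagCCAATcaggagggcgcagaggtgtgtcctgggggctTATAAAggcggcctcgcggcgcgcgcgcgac
CCAAT occurred 3 times before H2AJ, 3 times before H2AZ1, 4 times before H2AX and not at all before MACROH2A2. TATAAA occurred once each before H2AZ1 and H2AX, and in no member did the 2 motifs overlap. All 9 members matched the promoter table, with 13 start regions between them. CCAAT occurred at least 2 times in 6 of the 13, compared with 9.53% of the 35116 regions in the table, and at least once in 9 of the 13, compared with 11240 of the 35116. TATAAA was found in 4 of the 13, compared with 10.7% of regions. The dinucleotide CG was present 16 times before H2AJ and 19 times before MACROH2A2, against a median of 11 over all regions. These matches describe letters in a window and say nothing about which factor was bound.

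The libraries held between 19950537 and 26394267 counts. Levels are given as normalized CPM, which are counts divided by the size of the library and brought to one common size after scaling by the trimmed mean of M values (TMM), and ratios between lines as log2 ratios with a 95% interval. The interval covers counting error in the 2 libraries compared and no variation between cultures. A gene was analysed in a comparison where its mean over the pair was at least 1 normalized CPM, and counted as higher or lower where it differed at least 2-fold. A gene at 3 counts or fewer is compared as a bound, with 3 counts put in its place. The labelled tissue was checked on 8 markers of prostate luminal cells (among them KLK2, KLK3, TMPRSS2, HOXB13, FOLH1, KRT8 and KRT18), all of which were present in every library, with a summed level of 2808 to 6194 normalized CPM. LNCaP was the lowest line in the androgen-regulated kallikreins, with log2 ratios of 5.66 for KLK3 and 2.56 for KLK2 in LN-OlapR relative to LNCaP. LNCaP stood apart in KLK3 only. For KLK2 it was LN-OlapR that stood apart, at 747.6 normalized CPM, against 126.4 in LNCaP, 246.9 in C4-2B and 233.0 in 2B-OlapR. TMPRSS2 was also more than 2-fold higher in both resistant lines (1.28 and 1.01). Of 5 fibroblast markers 2 were in the table, at a sum of 7.19 to 16.3 normalized CPM, with COL1A1 at -0.88 and -1.17 on the log2 scale in LN-OlapR and 2B-OlapR relative to their parents. Of 5 leukocyte markers CD68 alone was in the table, at 0.409 to 5.14 normalized CPM (log2 ratios 3.59 and -0.94), and of 4 endothelial markers VWF alone, at 2.61 to 12.2 (-0.73 and -2.21). The part of these in the results below was not tested.

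H2AJ showed the widest difference. It was not counted at all in LNCaP and was abundant in the other 3 lines. The counts were LNCaP 0, LN-OlapR 4712, C4-2B 4662 and 2B-OlapR 4255. On the scale of normalized CPM the level was 0 in LNCaP, where the floor of 3 counts is 0.112, and 202.0, 227.8 and 205.4 in the other lines in that order. The gene was thus present at a like level in C4-2B and in both resistant lines, and LNCaP stood alone.

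Relative to LNCaP, the level of H2AJ in LN-OlapR was at least 1810-fold higher and that in C4-2B at least 2042-fold higher. Both of these ratios rest on the same LNCaP library. Between 2B-OlapR and C4-2B the log2 ratio of H2AJ was -0.15 (-0.21 to -0.09), and between the 2 resistant lines it was 0.02 (-0.04 to 0.08), within counting error. The difference seen in the LNCaP lineage was therefore also present between the parental lines and was not seen in the C4-2B lineage. In bulk RNA, fewer cells that express a gene and less RNA per cell cannot be told apart.

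Likeness to H2AJ was measured over the 10136 genes whose mean level reached 10 normalized CPM. The measure was the Euclidean distance between log2 levels, each centred on its mean over the 4 libraries. Before the log, 0.5 normalized CPM was added, so the LNCaP value of H2AJ was set by this offset. Of the nearest 5 genes, 4 are given here. KLK3, which encodes prostate-specific antigen, lay at a distance of 2.89, with 1428, 62636, 49347 and 38749 counts in LNCaP, LN-OlapR, C4-2B and 2B-OlapR. PCDH7, a protocadherin, lay at 3.14 with 15, 1634, 1146 and 445 counts in the same order. Both genes were lowest in LNCaP. CADPS2 (distance 3.19) had 18, 703, 1192 and 727 counts, and TM4SF1 (distance 3.59) had 40, 2032, 1765 and 545 counts. None of the 5 was among the 5 genes with the highest Pearson correlation with H2AJ over the same 4 libraries, so the list depends on the measure of likeness.

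**Figure D1:**
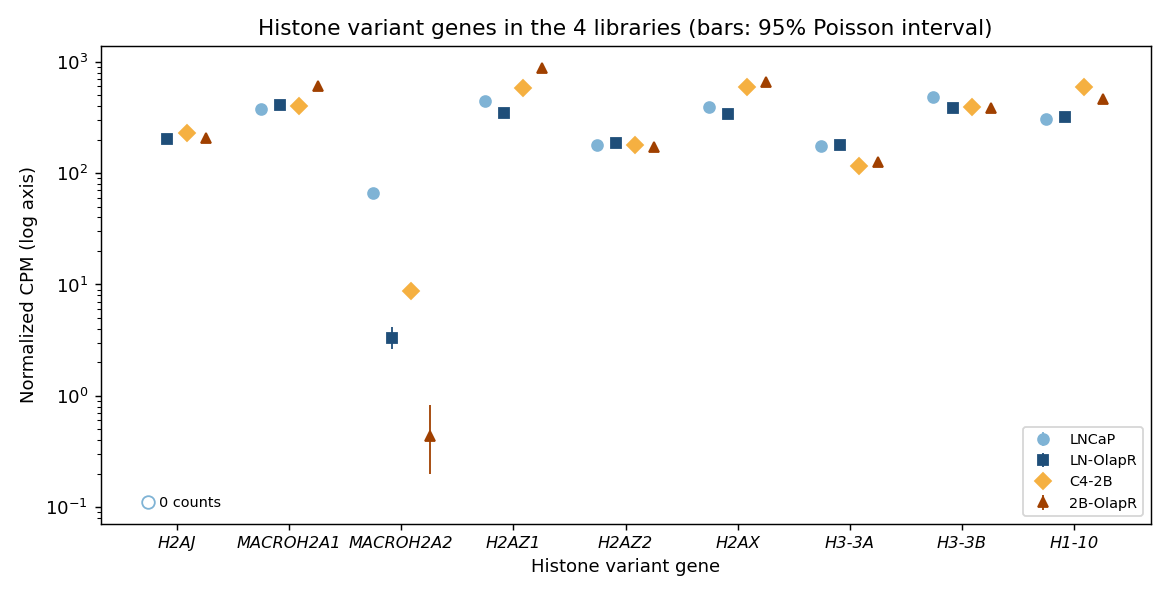
Level of each histone variant gene in normalized CPM (log axis) in LNCaP (circles), LN-OlapR (squares), C4-2B (diamonds) and 2B-OlapR (triangles), with bars for the 95% Poisson interval of the count. H2AJ in LNCaP is drawn as an open circle at the floor of 3 counts (0.112 normalized CPM), with no bar, and MACROH2A2 steps down from 66.2 in LNCaP to 0.434 in 2B-OlapR while the other 7 genes stay above 100 normalized CPM.

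H2AJ lies at chr12:14774383-14778002 on the plus strand (GRCh38, GENCODE annotation), and no annotated gene overlaps it. The 5 genes of the table on each side of it were followed through the same libraries. H4C16, a histone H4 gene that begins upstream of H2AJ on the opposite strand, had 1, 47, 47 and 33 counts in LNCaP, LN-OlapR, C4-2B and 2B-OlapR. ENSG00000261324, the next transcript on that side, had 6, 58, 94 and 48 counts in the same order, a log2 ratio of 3.37 (2.21 to 4.54) in LN-OlapR relative to LNCaP. The 2 genes before H2AJ were therefore also lowest in LNCaP, although at far lower counts than H2AJ itself.

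WBP11, a splicing factor and the next gene after H2AJ, had 2839, 2552, 2381 and 2407 counts, a log2 ratio of 0.05 (-0.03 to 0.13) in LN-OlapR relative to LNCaP. ATF7IP, which acts with a histone methyltransferase in silencing, had 1268, 839, 771 and 640 counts, a log2 ratio of -0.39 (-0.52 to -0.26). FAM234B had 851, 703, 864 and 452 counts, a log2 ratio of -0.07 (-0.21 to 0.07). In normalized CPM the 4 lines lay between 105.6 and 116.4 for WBP11, LNCaP was the highest for ATF7IP (47.2), and it lay among the others for FAM234B. RERG, on the far side of WBP11, had 0, 6, 20 and 28 counts and so was also lowest in LNCaP. The remaining neighbours EMP1, C12orf60, METTL8P1 and PTPRO had between 0 and 37 counts in every library. H4C16 and H2AJ belong to families of near-identical genes, and how reads shared between copies were assigned is not given in the sources used here, so their counts are uncertain to that extent.

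**Figure D2:**
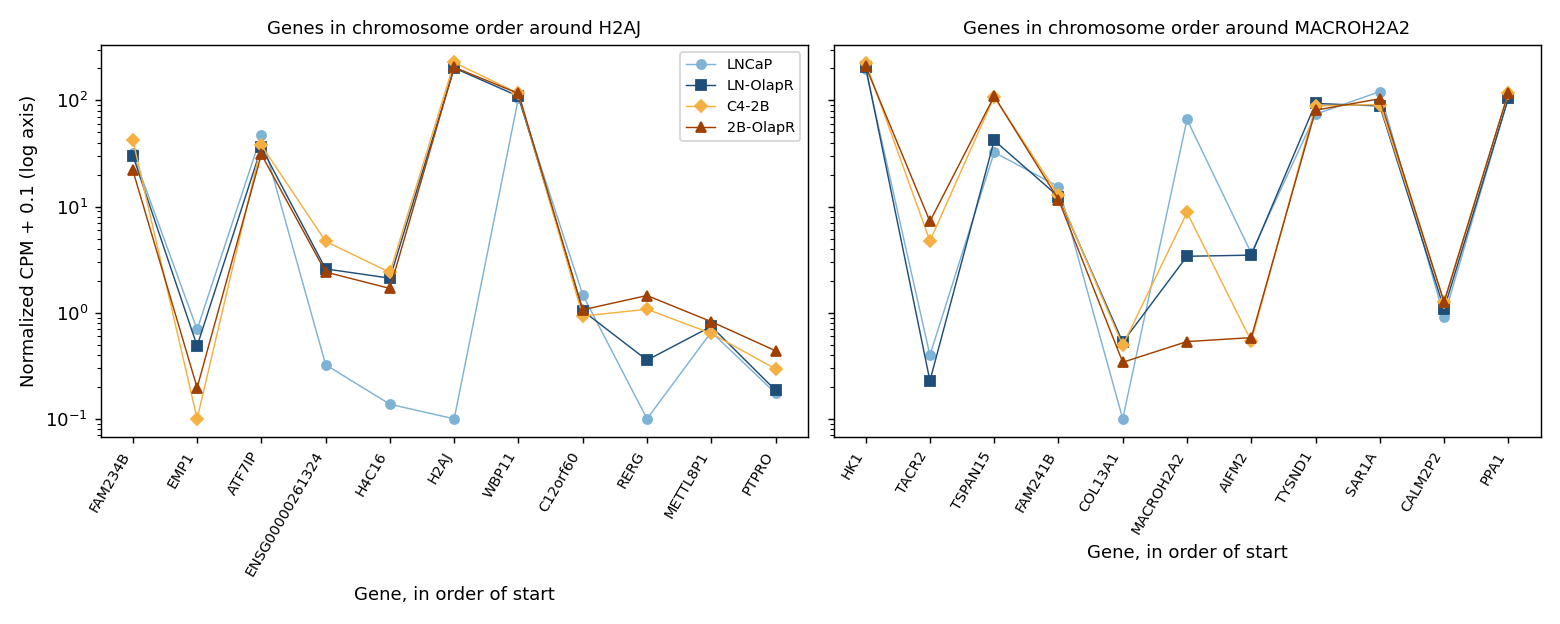
Level in normalized CPM plus 0.1 (log axis) of H2AJ (left) and MACROH2A2 (right) and of the 5 genes of the table on each side, in chromosome order, 1 line per cell line. LNCaP falls away from the other lines at ENSG00000261324, H4C16 and H2AJ and rejoins them at WBP11, with RERG again at 0 counts in LNCaP. On the right the lines part at MACROH2A2 without a matching step in SAR1A, TYSND1 or HK1. The lineages also part at AIFM2, TSPAN15 and TACR2.

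MACROH2A2 was lower in each resistant line than in its parent, by a like factor in both. The gene lies at chr10:70052796-70112280 on the plus strand. It was counted 1779 times in LNCaP, 77 times in LN-OlapR, 178 times in C4-2B and 9 times in 2B-OlapR, which are 66.2, 3.3, 8.70 and 0.434 normalized CPM. The castration-resistant parent was already well below LNCaP, and the lowest value of all was that of 2B-OlapR.

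In LN-OlapR relative to LNCaP MACROH2A2 was 19.9-fold lower (log2 ratio -4.32, -4.64 to -3.99). In 2B-OlapR relative to C4-2B it was 19.0-fold lower (log2 ratio -4.25, -5.19 to -3.31), where the wider interval comes from the 9 counts of 2B-OlapR. The 2 ratios use separate libraries and differed by 0.07 on the log2 scale (-0.93 to 1.06). Between the parental lines it was 7.59-fold lower in C4-2B than in LNCaP (log2 ratio -2.92, -3.15 to -2.70), and between the resistant lines 7.25-fold lower in 2B-OlapR than in LN-OlapR (log2 ratio -2.86, -3.83 to -1.89). The level was lower in the resistant line of each lineage and in the C4-2B line of each kind.

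Among all genes, 1.09% were at least 2-fold lower in both resistant lines, which is 159 of the 14602 analysed in both pairs. At 8-fold the number was 9, and 3 genes, MACROH2A2 included, had ratios as low as MACROH2A2 or lower in both pairs. Ordered from the lowest ratio, MACROH2A2 took place 70 of 15373 genes in the LNCaP lineage and place 31 of 15527 in the C4-2B lineage. These places describe a gene that was chosen for its low values.

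**Figure D3:**
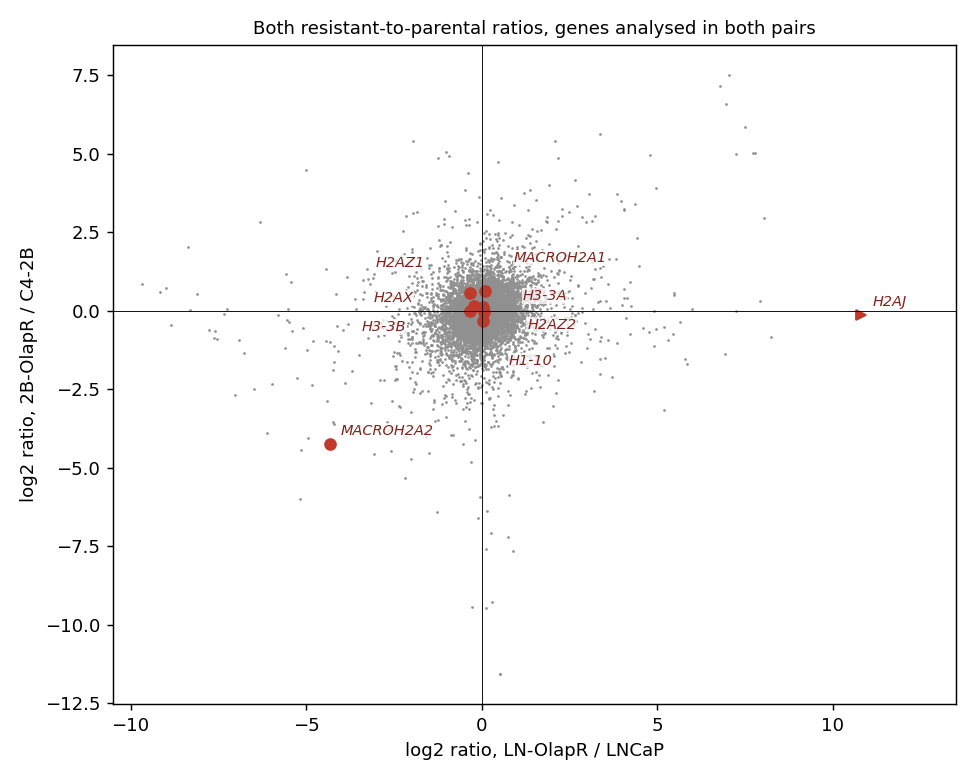
Log2 ratio of LN-OlapR to LNCaP (horizontal) against that of 2B-OlapR to C4-2B (vertical) for the 14602 genes analysed in both pairs, 1 grey point per gene (genes at 0 counts in a library are placed by the pseudocount of 0.5), and the 9 histone variant genes in red. MACROH2A2 lies at the lower left at -4.32 and -4.25, 1 of 3 genes that low in both, H2AJ far to the right at its lower bound (triangle), and the other 7 genes lie within the bulk of the cloud.

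Of the 5 genes on each side of MACROH2A2, none of those analysed was at least 2-fold lower in a resistant line than in its parent. AIFM2, which encodes a suppressor of ferroptosis and overlaps the end of MACROH2A2 on the opposite strand over 14058 bases, had 95, 79, 9 and 10 counts in LNCaP, LN-OlapR, C4-2B and 2B-OlapR. Its log2 ratio was -0.06 (-0.49 to 0.37) in LN-OlapR relative to LNCaP, and in 2B-OlapR relative to C4-2B it was too low to be analysed. AIFM2 was lower in both lines of the C4-2B lineage and alike within each lineage. Its log2 ratio was -2.94 (-3.90 to -1.97) between the parental lines and -2.75 (-3.68 to -1.82) between the resistant lines. TSPAN15 and TACR2 were higher in the C4-2B lineage, at 1.74 and 3.88 between the parental lines and 1.38 and 5.58 between the resistant lines. Whether strand was used in counting is not given in the sources used here, so reads of the overlap could belong to either gene. The neighbour with the lowest ratio in LN-OlapR among those analysed was SAR1A, a GTPase of vesicle transport, with a log2 ratio of -0.45 (-0.53 to -0.37). HK1 was at 0.08 (0.02 to 0.13) and PPA1 at -0.02 (-0.10 to 0.06).

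MACROH2A1, the gene of the other macroH2A protein, was well expressed in all lines and highest in 2B-OlapR. Its counts were LNCaP 10226, LN-OlapR 9461, C4-2B 8132 and 2B-OlapR 12676, or 380.4, 405.6, 397.4 and 611.8 normalized CPM. The first 3 lines were alike and 2B-OlapR stood above them. Its log2 ratio was 0.09 (0.05 to 0.13) in LN-OlapR relative to LNCaP and 0.62 (0.58 to 0.66) in 2B-OlapR relative to C4-2B. A gene count does not separate its splice isoforms, of which only one has a macrodomain able to bind ADP-ribose. MACROH2A1 lies at chr5:135333900-135399914 on the minus strand, and the antisense gene PITX1-AS1, with 149 to 254 counts, overlaps it.

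Summed over both macroH2A genes, the log2 ratio was -0.13 in LN-OlapR and 0.59 in 2B-OlapR, each relative to its parent. MACROH2A2 gave 14.8% of the macroH2A counts in LNCaP (Wilson 95% interval 14.2 to 15.5) and 0.807% in its resistant derivative (0.646 to 1.01). It gave 2.14% in C4-2B (1.85 to 2.48) and 0.071% in the derivative of that line (0.037 to 0.135). After division by the longest annotated transcript of each gene the shares of the 4 lines, in the same order, were 49.1%, 4.32%, 10.8% and 0.392%, and after division by the median transcript length they were 12.1%, 0.638%, 1.70% and 0.056%. The first set rests on the long longest transcript of MACROH2A1. By all of these reckonings the share was lower in each resistant line than in its parent.

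H2A.Z is encoded by H2AZ1 and H2AZ2, and of these H2AZ1 varied more between the lines. H2AZ1 (chr4:99948086-99950388, minus strand) was counted 11864 times in LNCaP, 8139 times in LN-OlapR, 11980 times in C4-2B and 18089 times in 2B-OlapR, or 441.3, 348.9, 585.5 and 873.0 normalized CPM. LN-OlapR was the lowest and 2B-OlapR the highest. Its log2 ratio was -0.34 (-0.38 to -0.30) in LN-OlapR relative to LNCaP and 0.58 (0.54 to 0.61) in 2B-OlapR relative to C4-2B, opposite in sign. Between the resistant lines it was 2.50-fold higher in 2B-OlapR (log2 ratio 1.32, 1.29 to 1.36), and between the parental lines the log2 ratio was 0.41 in C4-2B relative to LNCaP. The divergent transcript H2AZ1-DT, which overlaps the start of the gene, had 13 to 38 counts.

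H2AZ2 (chr7:44826791-44848083, minus strand) had 4829, 4387, 3669 and 3581 counts in LNCaP, LN-OlapR, C4-2B and 2B-OlapR, or 179.6, 188.1, 179.3 and 172.8 normalized CPM. It hardly varied. Its log2 ratio was 0.07 (0.01 to 0.13) in LN-OlapR, with the opposite sign when libraries were scaled by total counts, and -0.05 (-0.12 to 0.01) in 2B-OlapR. The share of H2A.Z counts from H2AZ1 was lowest in LN-OlapR (65.0%), then LNCaP (71.1%) and C4-2B (76.6%), and highest in 2B-OlapR (83.5%). For the sum of both genes the log2 ratio was -0.21 in LN-OlapR and 0.45 in 2B-OlapR.

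H2AX, the variant that is phosphorylated around double-strand breaks, was higher in the C4-2B lineage than in the LNCaP lineage. Its gene (chr11:119093854-119095467, minus strand, overlapped by no other) was counted 10547 times in LNCaP, 7940 times in LN-OlapR, 12102 times in C4-2B and 13715 times in 2B-OlapR, or 392.3, 340.4, 591.4 and 661.9 normalized CPM. The difference between lineages was larger than that between a resistant line and its parent. The log2 ratio was -0.20 (-0.25 to -0.16) in LN-OlapR relative to LNCaP and 0.16 (0.13 to 0.20) in 2B-OlapR relative to C4-2B, small and of opposite sign. It was 0.59 (0.55 to 0.63) in C4-2B relative to LNCaP and 0.96 (0.92 to 0.999) in 2B-OlapR relative to LN-OlapR.

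Markers of proliferating cells were followed beside H2AZ1 and H2AX, and none of them reached 2-fold. Of 8 such markers 7 were lower in LN-OlapR relative to LNCaP (median log2 ratio -0.11) and 6 were higher in 2B-OlapR relative to C4-2B (median 0.34). Their summed level in normalized CPM was lowest in LN-OlapR (1432), followed by C4-2B (1491) and LNCaP (1537), and highest in 2B-OlapR (1809). C4-2B thus had a slightly lower sum than LNCaP. Single markers were split between the parental lines. MKI67, PCNA and TOP2A were lower in C4-2B, with MKI67 at 315.8 against 398.9 for LNCaP. RRM2, BIRC5, CCNA2, CDK1 and CCNB1 were higher in C4-2B, with RRM2 at 204.6 against 154.6 for LNCaP. PCNA, the sliding clamp of DNA replication, had the highest ratio in 2B-OlapR (0.70), CDK1 the lowest (-0.40), and CCNA2 the lowest in LN-OlapR (-0.42). TOP2A was the marker with the highest ratio in LN-OlapR, at 0.01. The part of proliferation in the H2AZ1 and H2AX values was not tested.

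Of the H3.3 genes, H3-3A was alike within each lineage and H3-3B was lower in LN-OlapR than in LNCaP. H3-3A (chr1:226061851-226072001, plus strand) was counted 4672 times in LNCaP, 4145 times in LN-OlapR, 2385 times in C4-2B and 2596 times in 2B-OlapR, or 173.8, 177.7, 116.6 and 125.3 normalized CPM. It was lower in both lines of the C4-2B lineage, with a log2 ratio of -0.58 (-0.65 to -0.51) between the parental lines and of -0.50 between the resistant lines. Within the lineages the log2 ratios were 0.03 (-0.03 to 0.09) and 0.10 (0.02 to 0.18). H3P6, a processed copy of the gene, took 2297, 2282, 1655 and 1658 counts in the same order, and with the counts of H3P6 and H3-5 added the parental log2 ratio was -0.37 and the resistant one -0.39.

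H3-3B (chr17:75776434-75785893, minus strand) was counted 12961 times in LNCaP, 8951 times in LN-OlapR, 7977 times in C4-2B and 8003 times in 2B-OlapR, or 482.1, 383.7, 389.8 and 386.2 normalized CPM. LNCaP was the highest and the other 3 lines lay together. Its log2 ratio was -0.33 (-0.37 to -0.29) in LN-OlapR relative to LNCaP and -0.01 (-0.06 to 0.03) in 2B-OlapR relative to C4-2B. H3-3A gave 26.5%, 31.7%, 23.0% and 24.5% of the H3.3 counts in LNCaP, LN-OlapR, C4-2B and 2B-OlapR, although both genes encode the same protein. UNK, which overlaps H3-3B on the other strand, had 675 to 860 counts.

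H1-10 (chr3:129314771-129316277, minus strand) was counted 8287 times in LNCaP, 7454 times in LN-OlapR, 12091 times in C4-2B and 9692 times in 2B-OlapR, or 308.3, 319.6, 590.9 and 467.7 normalized CPM. Like H2AX, it was higher in the C4-2B lineage, and there the parental line was the higher one. Between the parental lines it was 1.92-fold higher in C4-2B (log2 ratio 0.94, 0.90 to 0.98). Its log2 ratio was 0.05 (0.01 to 0.10) in LN-OlapR relative to LNCaP, of the opposite sign when scaled by total counts, and -0.34 (-0.38 to -0.30) in 2B-OlapR relative to C4-2B. The antisense gene H1-10-AS1, which overlaps it, had 49, 90, 71 and 121 counts.

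All 9 genes were analysed in each of the 4 comparisons. In LN-OlapR relative to LNCaP 1 of the 9, H2AJ, was at least 2-fold higher and 1, MACROH2A2, at least 2-fold lower, where 4.64% and 4.83% of all genes were. In 2B-OlapR relative to C4-2B 0 of the 9 were higher and 1, MACROH2A2, was lower, against 4.42% and 5.65% of all genes.

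In C4-2B relative to LNCaP H2AJ was higher and MACROH2A2 lower, against 8% and 7.18% of all genes. In 2B-OlapR relative to LN-OlapR H2AZ1 was higher and MACROH2A2 lower, against 8.93% and 9.45%, with H2AX at 0.96 the nearest gene inside the 2-fold limit and H2AZ1 at 1.32 the nearest outside it. Since the genes were picked with these ratios known, nothing is read from their counts against the shares of all genes. These 2 comparisons share their libraries with the first 2.

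**Figure D4:**
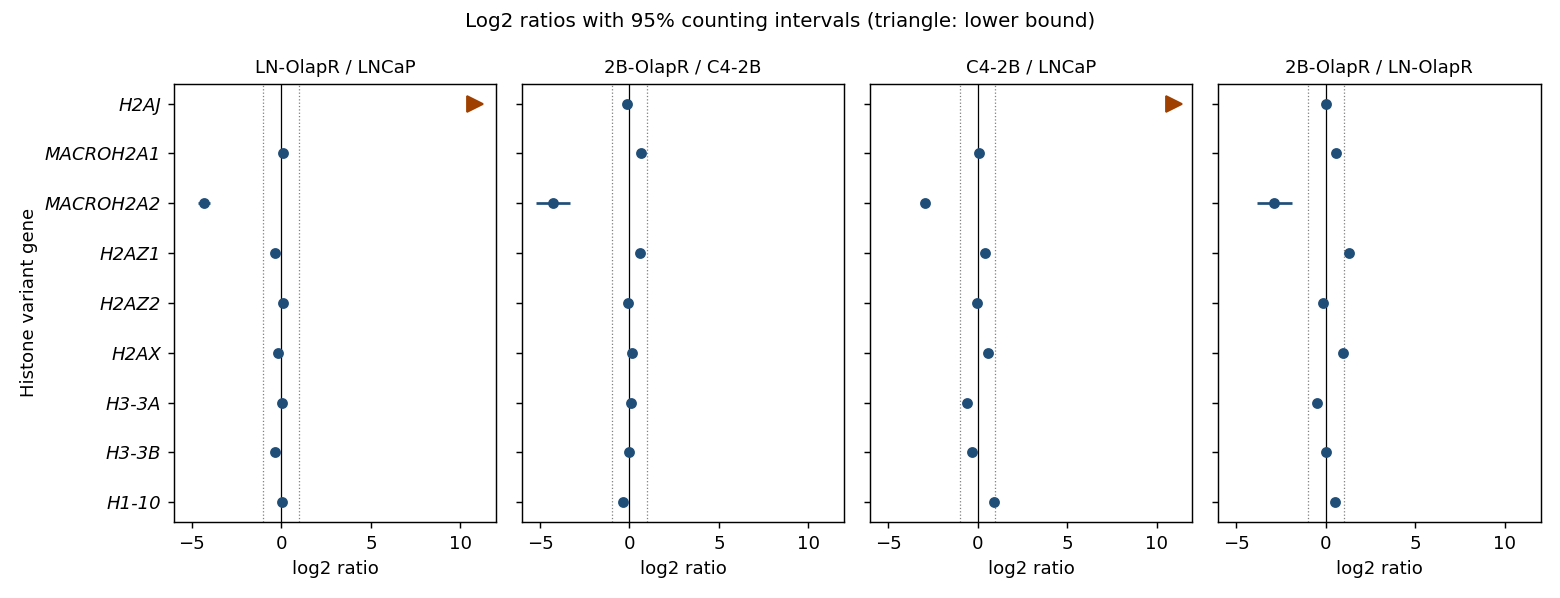
Log2 ratio of each histone variant gene in the 4 comparisons, with 95% counting intervals and dotted lines at 2-fold. Triangles mark the lower bounds of at least 1810-fold and at least 2042-fold for H2AJ, MACROH2A2 lies left of the 2-fold line in every panel, and of the other genes H2AZ1 alone passes it, at 1.32 in 2B-OlapR relative to LN-OlapR.

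Levels of different genes were compared per kilobase of transcript, and their order depended on which transcript length was used. With the longest annotated transcript the order in 2B-OlapR was H2AZ1 (464.4 normalized CPM per kilobase), H2AX (410.1), H1-10 (310.4), H3-3B (138.6), H3-3A (67.2), H2AJ (66.1), MACROH2A1 (55.7), H2AZ2 (45.4) and MACROH2A2 (0.219). The neighbours H3-3A and H2AJ in this order did not differ beyond counting error. With the median transcript length MACROH2A1 moved to the second place at 536.6, since its longest transcript is 10982 bases and its median 1140. H2AZ1 was first and MACROH2A2 last in 2B-OlapR by both lengths.

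In LNCaP, after H2AJ at 0, the lowest levels per kilobase of longest transcript were those of MACROH2A2 (33.4) and MACROH2A1 (34.6), whose intervals overlapped, and the highest those of H2AX (243.1) and H2AZ1 (234.7). In LN-OlapR and C4-2B MACROH2A2 was the lowest by both lengths, at 1.67 and 4.39 per kilobase of longest transcript. Of the counts of the 6 H2A variant genes, H2AJ made up none in LNCaP, 8.13% in 2B-OlapR, 11.4% in C4-2B and 13.6% in LN-OlapR.

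Genes that place, modify or read these variants were taken from lists. Few genes of the whole table passed 2-fold in these comparisons (4.64% higher and 4.83% lower in LN-OlapR, 4.42% and 5.65% in 2B-OlapR), so a list with none past it is no result about that list. Over all genes analysed, LN-OlapR had 7625 higher and 7748 lower than LNCaP, and 2B-OlapR 7761 higher and 7766 lower than C4-2B, each with a median log2 ratio of 0.00. Of 20 genes of the SRCAP, TIP60-p400 and INO80 machines and other chaperones that insert or remove H2A.Z, 12 were higher and 8 lower in LN-OlapR (median 0.16), and 10 were higher and 10 lower in 2B-OlapR (median -0.02). None reached 2-fold in either.

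NAP1L1, a chaperone of H2A and H2B, had the lowest ratio of these in both lineages. Its counts were LNCaP 19245, LN-OlapR 10118, C4-2B 12930 and 2B-OlapR 6564, and its log2 ratios were -0.72 (-0.76 to -0.69) and -0.996 (-1.04 to -0.95), the latter just inside the 2-fold limit and outside it when scaled by total counts. ZNHIT1, a subunit of SRCAP, was the highest in LN-OlapR at 0.94 (0.84 to 1.05), and MRGBP, a subunit of TIP60, the highest in 2B-OlapR at 0.66 (0.52 to 0.79).

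Of 8 chaperones of H3.3, 5 were higher and 3 lower in LN-OlapR (median 0.04) and 3 higher and 5 lower in 2B-OlapR (median -0.04), and none reached 2-fold. UBN2, a partner of HIRA, was the highest in LN-OlapR (0.62) and ASF1A, which hands histones to HIRA, the lowest (-0.49). In 2B-OlapR HIRA was the highest (0.32) and ATRX, which places H3.3 in heterochromatin, the lowest (-0.62), counted 2049 times in C4-2B and 1354 times in 2B-OlapR.

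Of 14 kinases, readers and phosphatases of H2AX 13 were analysed. In LN-OlapR 8 were higher and 5 lower (median 0.05), with the kinase ATR at the top (0.34) and the kinase ATM at the bottom (-0.40). In 2B-OlapR 3 were higher and 10 lower (median -0.10), from the phosphatase subunit PPP2CA (0.65) to TP53BP1, a reader of damaged chromatin (-0.79), with C4-2B at 1092 counts and 2B-OlapR at 638. None of these genes reached 2-fold.

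Among 13 writers, macrodomain readers and erasers of ADP-ribose, the ligand of the macroH2A1 macrodomain, 11 were analysed, of which 9 were lower in LN-OlapR (median -0.33) and 10 were lower in 2B-OlapR (median -0.21). PARP14, a mono-ADP-ribosyl transferase with macrodomains, passed 2-fold in LN-OlapR, from 76 counts in LNCaP to 13 (log2 ratio -2.30, -3.13 to -1.46), and was also the lowest in 2B-OlapR at -0.83. CHD1L, a remodeller with a macrodomain, was the highest in LN-OlapR (0.30), and PARP9 the highest in 2B-OlapR (0.16). Of the olaparib targets, PARP1 was at -0.02 (-0.06 to 0.01) in LN-OlapR and -0.21 (-0.25 to -0.17) in 2B-OlapR. PARP2 was at -0.33 (-0.45 to -0.22) in LN-OlapR and -0.42 (-0.57 to -0.26) in 2B-OlapR.

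Of 12 chaperones of replicating chromatin and of the centromere, 5 were higher in LN-OlapR (median -0.06) and 8 in 2B-OlapR (median 0.24). HJURP, the chaperone of the centromeric variant CENP-A, was the highest in both, at 0.42 and 0.85. NASP was the lowest in LN-OlapR (-0.34) and SUPT16H, a subunit of the FACT complex, in 2B-OlapR (-0.55). None of the 12 reached 2-fold.

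The list of 12 other histone genes outside the replication clusters had 5 in the table, all analysed, with medians of -0.41 in LN-OlapR and -0.11 in 2B-OlapR. CENPA, the centromeric variant, was the highest of the list in 2B-OlapR, with C4-2B at 418 counts and 2B-OlapR at 592 (log2 ratio 0.48), while LNCaP had 464 and LN-OlapR 260 (-0.63). H2BC26 was the highest of the matched genes in LN-OlapR, at 159 counts against 114 in LNCaP (0.68).

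**Figure D5:**
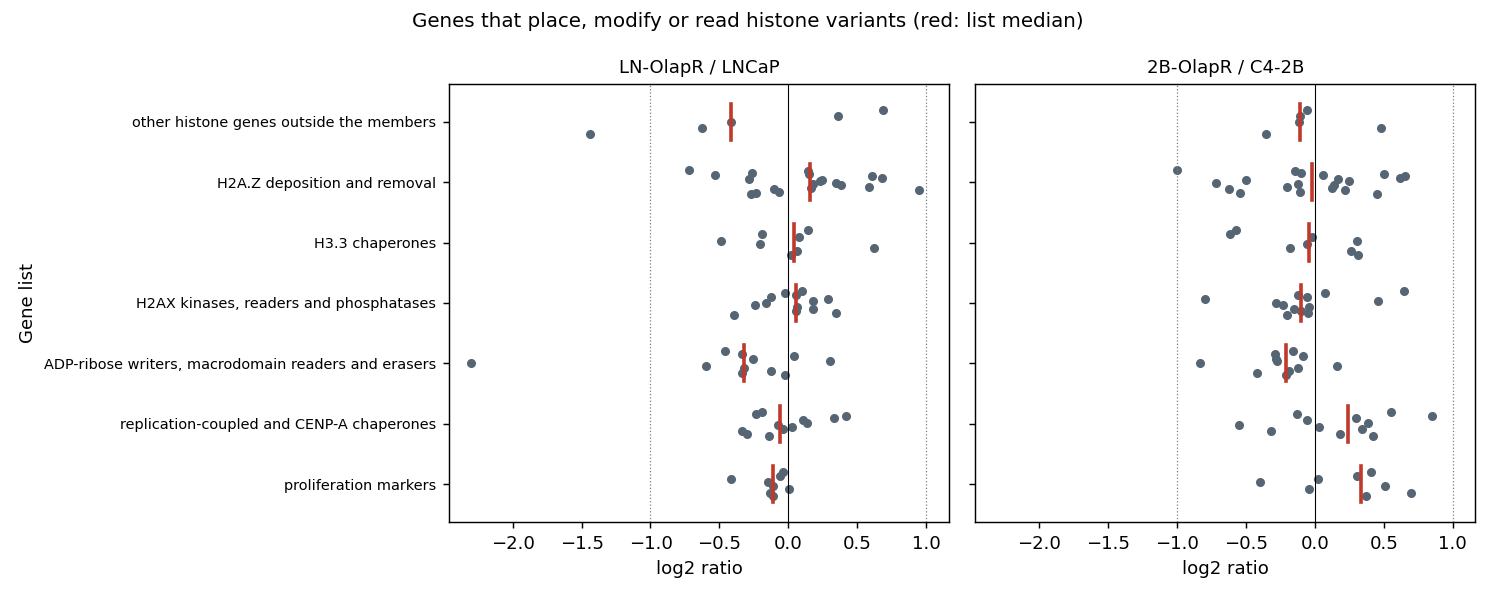
Log2 ratio of each analysed gene of 7 gene lists in LN-OlapR relative to LNCaP (left) and in 2B-OlapR relative to C4-2B (right). List medians are in red and dotted lines are at 2-fold. H4C16, which was not matched by its listed name, is not drawn. PARP14 at -2.30 in LN-OlapR has the lowest ratio of all, and the median of the proliferation markers lies at -0.11 on the left and 0.34 on the right.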

How the data were processed

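Stranded mRNA-seq libraries were made from 100 ng of total RNA of LNCaP, LN-OlapR, C4-2B and 2B-OlapR, 1 library each. The table the authors deposited holds estimated counts per gene, of which 46.2% are not whole, and per the submitters' processing notes STAR and Partek and the build GRCh38 (hg38) were used. Annotation, versions, strand setting and treatment of shared reads are not given in the sources used here. Every gene in it had at least 10 counts summed over the libraries. Counts were rounded to whole numbers.

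Library sizes were scaled by TMM over all 4 libraries (edgeR 4.0.16 in R 4.3.3), and ratios were computed with a pseudocount of 0.5 in Python 3.11.15. With 1 library per line no test was run. Intervals and floors cover counting error only. Ratio code was checked on simulated counts. Genes were matched by Ensembl identifier to GENCODE release 29 (21395 of 22637, 94.5%), and promoters by symbol to RefSeq (GRCh38.p14).

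The members and gene lists were chosen with earlier results of these data known. Named were all members, the highest and lowest gene of each list in the resistant-to-parental comparisons and any list gene past 2-fold, the 5 genes on each side of H2AJ, and the 5 genes nearest to it in pattern. Some results that this rule names are not reported here. PARP1, PARP2 and the genes beside MACROH2A2 were named after their values were seen. Alternatives were scaling by total counts, DESeq2 1.42.0 size factors or upper quartiles, a pseudocount of 2, minimum means of 0.1 and 10 normalized CPM, a 1.5-fold limit, median transcript length, and correlation in place of distance. The sums of H3-3A with H3P6 and H3-5, the genes beside MACROH2A2 and the promoter letters were added after seeing the data.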

Additional observations from a re-analysis of the deposited data

Results flagged for a closer look

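For 4 of the 9 genes the log2 ratio went in opposite directions in the 2 resistant lines, beyond counting error in each, so they are listed for a closer look. With 1 library per line the difference between the lineages was not tested. For H2AJ the ratio in 2B-OlapR relative to C4-2B minus that in LN-OlapR relative to LNCaP was -10.97 with LNCaP set to 3 counts, so the difference is at least that large, and the small 2B-OlapR ratio of -0.15 is the part that is negative. For H2AZ1 the same difference was 0.92 (0.86 to 0.97 by counting error), and for H2AX 0.37 (0.31 to 0.42). H2AZ1 and H2AX kept opposite signs under all 4 scalings. For H1-10 the difference was -0.39 (-0.45 to -0.33), and its signs were opposite under 3 of the 4 scalings.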

How the results depend on the processing

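The labels carry no replicate numbers, so libraries could be paired only by lineage, as in the resistant-to-parental ratios. No library could be left out within a group. A fit with lineage and resistance as terms, which would leave 1 residual degree of freedom, was not run. MACROH2A2 kept its direction and stayed past 2-fold in all 4 comparisons under every scaling and pseudocount. With a minimum mean of 10 normalized CPM it was no longer analysed in 2B-OlapR relative to C4-2B or to LN-OlapR, so that 0 members were lower in each. Of all genes analysed, 256 of 10015 and 558 of 10056 were lower there. Scaled by total counts, the ratio in LN-OlapR relative to LNCaP changed sign for H2AZ2 (-0.0179) and H1-10 (-0.0323), and the median of all genes shifted by 0.08 there. Scaled by total counts or by upper quartiles, 2 members were at least 2-fold higher in 2B-OlapR relative to LN-OlapR, as H2AX joined H2AZ1. Of all genes analysed, 1503 of 15482 and 1509 of 15557 were higher under these scalings. With a 1.5-fold limit 1 member was higher in 2B-OlapR relative to C4-2B, 3 in C4-2B relative to LNCaP and 3 in 2B-OlapR relative to LN-OlapR. Of all genes analysed, 1658 of 15527, 2506 of 15580 and 2768 of 15539 were higher in the same order. Over the 4 comparisons and both directions the number of genes past the limit, 687 to 1469 in the main analysis, was 1956 to 3019 with a minimum mean of 0.1 normalized CPM, 163 to 558 with a minimum of 10, and 1633 to 3110 with a 1.5-fold limit. The medians of the H3.3 chaperones and the H2AX list in LN-OlapR changed sign with scaling (-0.04 to 0.05 and -0.03 to 0.06), as did that of the H2A.Z list in 2B-OlapR (-0.06 to 0.06).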
